A study of Mus musculus with 6 samples.

Results

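The RNA of 8 genes for NADPH-producing enzymes and enzymes of the pentose phosphate pathway was measured in mouse liver: G6pdx, Pgd, Taldo1, Tkt, H6pd, Idh1, Idh2 and Nnt. They were chosen by name, as genes of these routes, with earlier results of these data known. They are 8 of the 20673 genes listed in the deposited tables. All 8 had enough reads to be among the 13105 genes tested. The livers came from C57BL/6J mice, of which 3 had eaten a regular diet (RD) and 3 a high-cholesterol diet (HCD) for 3 days, with 1 sequencing library per liver. According to the study's methods, HCD also holds cocoa butter and sodium cholate, a bile acid, so that the effects of cholesterol, fat and cholate cannot be told apart. No other treatment is given for these mice. The study used mice of both sexes, about 12 weeks of age, and the sources used here do not say which sex each liver came from. The question was whether 3 days of HCD changed the RNA of the enzymes that supply the liver with NADPH.

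NADPH carries the electrons that liver cells spend on building fatty acids and cholesterol, on cytochrome P450 reactions, and on returning oxidized glutathione and thioredoxin to their reduced form. In the cytosol it comes largely from the oxidative branch of the pentose phosphate pathway, from malic enzyme and from isocitrate dehydrogenase, while mitochondria have an isocitrate dehydrogenase and a proton-driven transhydrogenase of their own. The lumen of the endoplasmic reticulum (ER) keeps a separate pool of NADPH, which hexose-6-phosphate dehydrogenase fills and which the glucocorticoid-activating enzyme 11β-hydroxysteroid dehydrogenase type 1 uses.

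H6pd, which encodes hexose-6-phosphate dehydrogenase of the ER lumen, fell with HCD by 0.86 on the log2 scale (standard error 0.16), which is 1.82-fold lower. It was the only member called, meaning that edgeR's quasi-likelihood test, after Benjamini-Hochberg adjustment for the whole set of genes tested, gave it an adjusted p under 0.05. The cytosolic enzymes of the oxidative branch, G6pdx and Pgd, and the cytosolic isocitrate dehydrogenase Idh1 had intervals that include no change. Tkt and Idh2 were higher in each HCD liver than in any RD liver without passing the test. Thus 1 of 8 members was called, beside 3.27% of all genes tested, and that 1 was lower, beside 1.32% called lower. None was called higher, beside 1.95% of all genes. DESeq2 also called H6pd alone, but these shares are those of edgeR, and the share of all genes called by DESeq2 is not given here. At an unadjusted p of 0.05 or less there were 3 members, 2 higher and 1 lower, beside 20.9% of all genes. The livers of the 2 diets did not overlap for 4 members, 2 higher and 2 lower with HCD, beside 27.6% of all genes. The median log2 fold change (HCD over RD) was 0.09 over the members and 0.01 over all genes tested. A cell's RNA level is not its enzyme activity, and in RNA from whole liver fewer cells of a type and less RNA per cell cannot be told apart.

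The RD libraries held 13771630 to 23129576 counts, and the HCD libraries 13935491 to 18545549. A liver on HCD, replicate 1, stood apart: it carried 5032 reads of Xist, the RNA made from an inactive X chromosome, whereas the other 5 livers had 0. Its summed level of 6 male-biased liver genes was 118 CPM (counts scaled to a common total with edgeR's TMM factors), against 5534 to 8032 CPM in the others, and that of 7 female-biased genes was 1017 CPM against 0.0961 to 3.81 CPM. These sex-linked and sex-biased RNAs were uneven between the diets, and each member is given below also without this liver. The 7 hepatocyte markers listed, led by Alb, summed to 82962 to 116393 CPM with RD and 90921 to 131186 with HCD, and none was called. Of other cell types, all 9 Kupffer cell markers, led by Clec4f, had log2 fold changes above 0, with sums of 154 to 253 CPM in RD and 207 to 463 in HCD. Of these 4 had a p of 0.05 or less before adjustment in edgeR, beside 20.9% of all genes tested, but none was called. The red cell list, led by Alas2, summed to 138 to 239 and 177 to 468 CPM, with Hba-a1 (2.41) and Hbb-bs (2.28) called higher on the log2 scale, while Slc4a1 stayed at or below 0.324 CPM and Alas2 itself was at -0.70 (adjusted p = 0.612), with 8.24 CPM in HCD replicate 1 and 97.0 to 154 CPM in the others. Among leukocyte markers, led by Lyz2, none of the 5 tested of 11 listed was called (40.7 to 60.5 and 58.3 to 89.5 CPM), and Cd3e was at or below 1.24 CPM. No marker was called of endothelial cells (7 tested, led by Clec4g, 91.5 to 162 and 121 to 197 CPM), stellate cells (7, Dcn, 218 to 222 and 219 to 362 CPM), cholangiocytes (5, Spp1, 37.4 to 91.9 and 64.5 to 98.1 CPM) or adipocytes (2, Car3, 2561 to 2600.4 and 1746 to 2958 CPM, with Adipoq at or below 0.144 CPM). Log2 fold changes were also above 0 for all 5 leukocyte and all 7 stellate cell markers tested, and for 6 of 7 endothelial markers. The counts were 4 of 5 for cholangiocytes, 4 of 5 for red cells, 3 of 7 for hepatocytes and 0 of 2 for adipocytes. Pericentral markers (7, Cyp2e1, 6117 to 10511 and 7698 to 8659 CPM) had none called, and of 7 periportal markers (Pck1, 2796 to 7046 and 4029.5 to 6479 CPM) only Hsd17b13 was called, higher by 0.79 on the log2 scale. The part of any of these in the results on the members was not tested.

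Per gene length, the members spanned a wide range in FPKM, fragments scaled to gene length and to the size of the library. Idh1 was highest, at 179.7 to 216 FPKM over the 6 livers (median 193), followed by H6pd at 89.1 to 194 FPKM (median 151) and Taldo1 at 76.3 to 110.2 FPKM (median 84.8). These neighbours in the order overlapped when the livers of both diets were pooled. In the RD livers alone H6pd was above Taldo1 (187 to 194 against 79.6 to 87.2 FPKM). In the HCD livers alone H6pd was below Idh1 (89.1 to 115 against 179.7 to 207 FPKM). Taldo1 and Idh2 also overlapped when pooled, through HCD replicate 1, where Idh2 had 119 FPKM. Idh2 lay at 44.5 to 119 FPKM (median 45.9). From there on the ranges were apart. Tkt had 23.1 to 40.3 FPKM (median 30.4), Pgd 7.19 to 10.5 FPKM (median 8.65) and G6pdx 1.85 to 3.48 FPKM (median 2.94). Nnt was lowest, at 0.101 to 0.412 FPKM (median 0.162). Glucose-6-phosphate dehydrogenase of the cytosol, the entry to the pathway, was thus listed far below its ER counterpart: H6pd FPKM was 53.7 to 62.8 times G6pdx FPKM in the RD livers, and 31.9, 62.2 and 40.6 times in the HCD livers. The order of the 8 genes was the same by TMM-scaled CPM per kilobase.

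**Figure D1:**
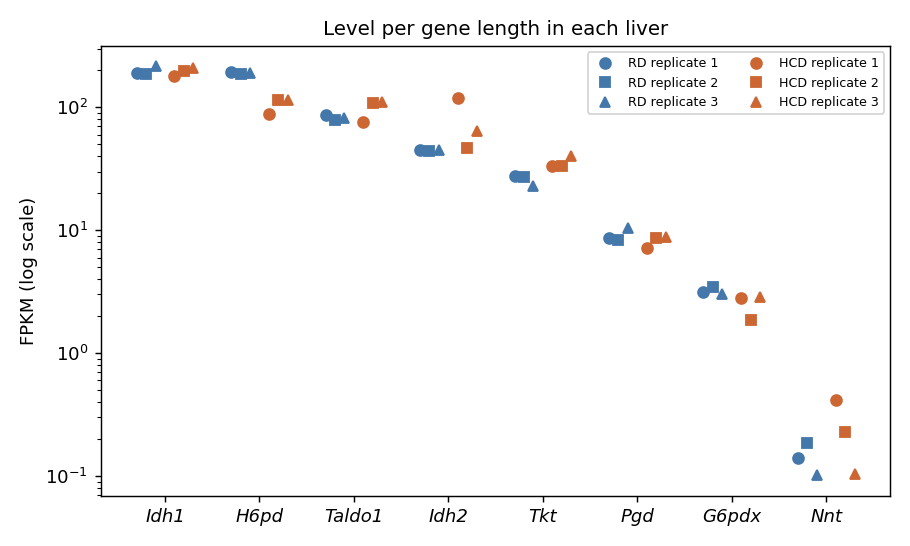
Level per gene length of the 8 genes in each of 6 livers, as FPKM on a log axis, with genes ordered by their mean. Blue marks are RD and orange marks HCD, and the marker shape gives the replicate. Idh1 and H6pd lie near the top, H6pd drops to 89.1 to 115 FPKM with HCD, and Nnt lies below 0.5 FPKM in all 6 livers.

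H6pd (ENSMUSG00000028980, on the minus strand of chromosome 4, from 149979475 to 150009023 on GRCm38 in GENCODE M21) encodes a bifunctional enzyme that carries out the dehydrogenase and the lactonase step of the pathway inside the ER. It had 699, 682 and 668 CPM in RD replicates 1 to 3 and 309, 415 and 403 CPM in HCD replicates 1 to 3. All 3 HCD livers lay far below the RD livers, which differed little among themselves, with 683 ± 16.0 CPM in RD and 376 ± 58.1 in HCD (SD, n = 3). The log2 fold change was -0.86 with a 95% interval of -1.23 to -0.49 and an adjusted p = 0.0319 by edgeR, or 1.02e-05 by DESeq2. Without HCD replicate 1 it was -0.74 (adjusted p = 0.0406). Its adjusted p was above 0.05 without RD replicate 1 (0.145), RD replicate 2 (0.133), RD replicate 3 (0.0799) or HCD replicate 3 (0.0776), with log2 fold changes of -0.92 to -0.85. It was also not called once each library's trend with gene length was removed, at -0.79 and an adjusted p = 0.0659. That trend differed between the diets, with slopes of 0.0417 to 0.0666 in RD and -0.0878 to -0.0117 in HCD (deviation in log2 CPM for each doubling of gene length).

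G6pdx (ENSMUSG00000031400, chromosome X, 74409483 to 74429194, minus strand) encodes the cytosolic glucose-6-phosphate dehydrogenase, the rate-limiting step of the oxidative branch. It had 6.68, 7.46 and 6.25 CPM in the RD livers and 5.71, 3.93 and 5.84 CPM in the HCD livers, from 57 to 144 reads per library. The HCD livers were all below the RD livers, though by a narrow margin, since the closest pair was 5.84 against 6.25 CPM. The log2 fold change of -0.40 (standard error 0.26) had an interval from -0.98 to 0.19, which covers both no change and a fall larger than that of H6pd (adjusted p = 0.417). Without HCD replicate 1 it was -0.48 (adjusted p = 0.410), and without HCD replicate 2, the liver with the lowest level, -0.24. G6pdx reads are uncertain in part, because 418 of its 3080 exon bases lie opposite an exon of Ikbkg, whether counting used strand is not given, and its transcript is 93.1% identical over 2331 bases to that of G6pd2.

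Promoter sequences of RefSeq on GRCm38.p6, which run from 250 bases before to 50 bases after a transcript start, were given for 7 of the 8 members. Those of H6pd (chr4:150003187-150003486, minus strand) and of its cytosolic counterpart G6pdx (chrX:74428831-74429130, minus strand) are shown because the 2 enzymes catalyse the same first step and only H6pd was called. Each is read 5′ to 3′ on the gene's strand, with motif matches in capitals.
H6pd: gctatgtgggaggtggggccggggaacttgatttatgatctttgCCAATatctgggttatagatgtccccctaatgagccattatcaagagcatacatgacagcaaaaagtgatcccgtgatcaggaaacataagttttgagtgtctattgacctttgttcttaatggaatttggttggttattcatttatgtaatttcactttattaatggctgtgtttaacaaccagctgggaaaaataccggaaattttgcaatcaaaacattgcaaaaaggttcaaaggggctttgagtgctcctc
G6pdx: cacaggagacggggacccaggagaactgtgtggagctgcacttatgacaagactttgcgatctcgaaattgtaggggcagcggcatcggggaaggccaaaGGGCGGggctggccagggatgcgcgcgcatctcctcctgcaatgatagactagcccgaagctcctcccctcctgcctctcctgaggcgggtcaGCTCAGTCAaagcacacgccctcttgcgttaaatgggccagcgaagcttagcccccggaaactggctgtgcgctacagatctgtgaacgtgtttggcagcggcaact
The capitals mark a CCAAT box in H6pd, and in G6pdx a GC box (GGGCGG) followed by an antioxidant response element core (TGACNNNGC) that is read on the opposite strand. Searched on both strands, CCAAT occurred in 37.4% of 32851 RefSeq promoters, GGGCGG in 35.7% and TGACNNNGC in 12.4%, and the matches shown do not overlap. The H6pd window held 39.3% G and C with 3 CG dinucleotides and that of G6pdx 60% with 18, against medians of 52.7% and 7 over all promoters. The windows of the other members held 51.3% to 68.3% G and C and 9 to 23 CG dinucleotides. No member's window matched the E-box CACGTG (7.15% of promoters), the sterol response element TCACNCCAC (1.24%) or TATAAA (13.6%). The M21 model of H6pd reaches beyond this window to 150009023, and which start the livers used was not measured.

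Pgd (ENSMUSG00000028961, chromosome 4, 149149991 to 149166771, minus strand) encodes 6-phosphogluconate dehydrogenase, which makes the second NADPH of the oxidative branch. It had 38.6, 37.1 and 45.1 CPM with RD and 30.7, 38.3 and 38.1 CPM with HCD. The diets overlapped, with RD replicate 3 highest and HCD replicate 1 lowest. Its log2 fold change was -0.18 (standard error 0.15, interval -0.52 to 0.16, adjusted p = 0.538), and -0.08 without HCD replicate 1 (adjusted p = 0.806) or -0.09 without RD replicate 3. The interval excludes a fall as large as the fitted one of H6pd.

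**Figure D2:**
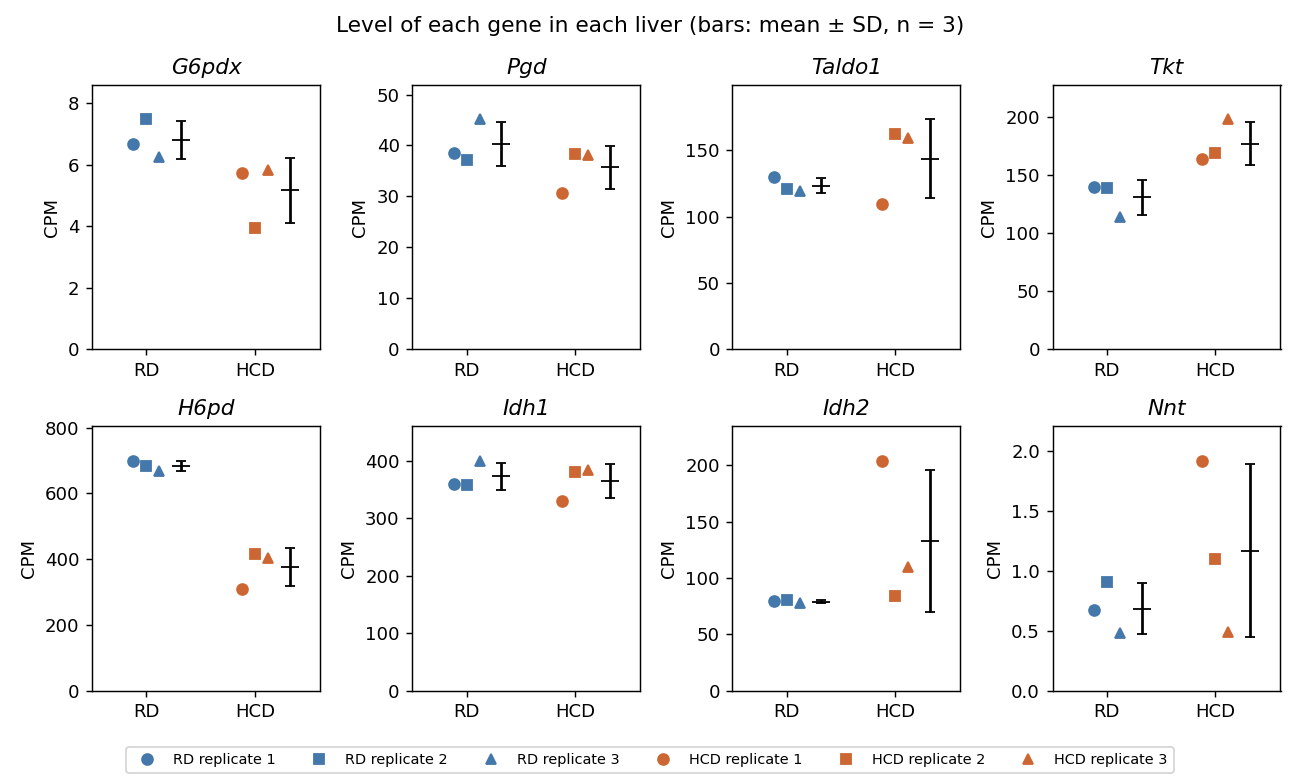
Level of each of the 8 genes in each liver, as TMM-scaled CPM on axes that start at 0. Marks are single livers, blue for RD and orange for HCD with the marker shape giving the replicate, and bars give the mean ± SD of 3 livers. H6pd separates the diets most widely, at 668 to 699 against 309 to 415 CPM, and HCD replicate 1 is the highest for Idh2 and Nnt.

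The non-oxidative branch is reversible and joins pentoses to glycolysis through transketolase and transaldolase. Tkt (ENSMUSG00000021957, chromosome 14, 30548359 to 30574720, plus strand), for transketolase, had 139.8, 139 and 113 CPM with RD and 163, 169 and 198 CPM with HCD. Every HCD liver was above every RD liver. The log2 fold change was 0.43 (standard error 0.15, interval 0.10 to 0.77), which had an unadjusted p = 0.0170 and did not pass after adjustment (adjusted p = 0.145) by edgeR. Without HCD replicate 1 it was 0.49 (adjusted p = 0.136). Taldo1 (ENSMUSG00000025503, chromosome 7, 141392199 to 141402968, plus strand), for transaldolase, had 130.1, 121 and 119.7 CPM with RD and 109.8, 162 and 159.6 CPM with HCD. Here HCD replicate 1 was the lowest of the 6 livers and the other HCD livers were the highest. Its log2 fold change was 0.22 (standard error 0.17, interval -0.17 to 0.61, adjusted p = 0.497), and 0.38 without HCD replicate 1 (adjusted p = 0.151). It was 0.12 without HCD replicate 2 and 0.13 without HCD replicate 3.

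Isocitrate dehydrogenases that use NADP exist in the cytosol and in mitochondria. Idh1 (ENSMUSG00000025950, chromosome 1, 65158616 to 65186500, minus strand), the cytosolic and peroxisomal form, had 359.5, 358 and 399.7 CPM with RD and 330.1, 379.6 and 383 CPM with HCD. The diets overlapped in part, with HCD replicate 1 lowest and RD replicate 3 highest. The log2 fold change of -0.03 (standard error 0.14) had an interval from -0.35 to 0.29 (adjusted p = 0.921). Without HCD replicate 1 it was 0.03 (adjusted p = 0.918), and it turned positive without RD replicate 3 as well (0.02). Idh2 (ENSMUSG00000030541, chromosome 7, 80094846 to 80115392, minus strand), the mitochondrial form, had 79.4, 80.3 and 77.4 CPM with RD and 204, 84.2 and 110.1 CPM with HCD. The RD livers lay within 3 CPM of each other and below all HCD livers, and among the latter HCD replicate 1 stood far above the rest. Its log2 fold change of 0.75 (standard error 0.29, interval 0.09 to 1.41) had an unadjusted p = 0.0299 and an adjusted p = 0.188 in edgeR, and an adjusted p = 0.0577 in DESeq2. Without HCD replicate 1 the value was 0.30 (adjusted p = 0.313). Idh1 FPKM was 4.17 to 4.82 times Idh2 FPKM in the RD livers, and 1.51, 4.21 and 3.25 times in HCD replicates 1 to 3.

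Nnt (ENSMUSG00000025453, chromosome 13, 119335448 to 119408997, minus strand) encodes the transhydrogenase of the inner mitochondrial membrane, which makes NADPH from NADH. C57BL/6J mice are known to carry a deletion of several of its exons. It had 14, 13 and 11 reads with RD and 38, 16 and 6 with HCD, or 0.673, 0.907 and 0.478 CPM against 1.92, 1.10 and 0.486 CPM. The diets overlapped, and HCD replicates 1 and 3 were the highest and nearly the lowest of the 6 livers. The log2 fold change of 0.81 (standard error 0.63, interval -0.64 to 2.25, adjusted p = 0.505) became 0.24 without HCD replicate 1 (adjusted p = 0.890), and a difference was not detectable at this depth. Of its 7037 exon bases, 3339 also belong to a second M21 gene of the same name, and how reads shared by both were counted is not given.

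**Figure D3:**
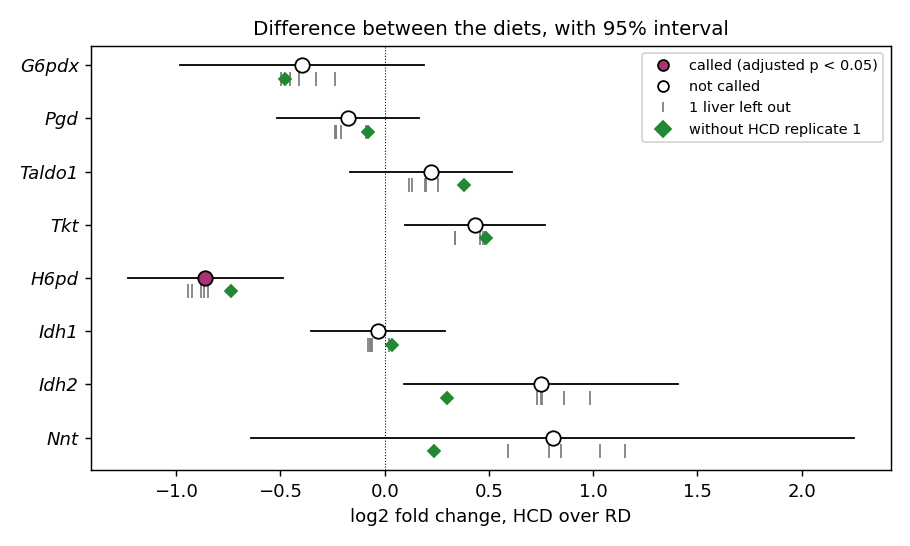
Log2 fold change (HCD over RD) of the 8 genes on the x axis, with 95% intervals from edgeR. Filled circles are called and open circles are not, grey ticks leave out 1 liver each and green diamonds leave out HCD replicate 1. The interval of H6pd lies from -1.23 to -0.49, and Idh2 and Nnt move toward 0 without HCD replicate 1.

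Within each liver, 4 pairs of members with related roles were compared as log2 ratios of CPM. This removes a library's scale but not its trend with gene length. All 4 overlapped between the diets, and 3 livers against 3 cannot give an exact p below 0.10. The ratio of Idh2 to Idh1, mitochondrial over cytosolic, was -2.23 ± 0.12 in RD and -1.55 ± 0.77 in HCD (SD, n = 3), a difference of 0.68 (exact two-sided permutation p = 0.2, adjusted over the 4 pairs 0.4). H6pd over G6pdx differed by -0.49 (exact permutation p = 0.2, adjusted 0.4), from 6.55 ± 0.11 to 6.06 ± 0.46. That ratio was 6.55 in HCD replicate 2, inside the RD range, and this was the liver with the lowest G6pdx. Tkt over Taldo1 differed by 0.24 (exact permutation p = 0.3, adjusted 0.4) and Pgd over G6pdx by 0.21 (exact permutation p = 0.6, adjusted 0.6). Single livers moved these differences. Without HCD replicate 1 they were 0.25 for Idh2 over Idh1, -0.28 for H6pd over G6pdx and 0.11 for Tkt over Taldo1, and without HCD replicate 2 they were 0.98, -0.74 and 0.36. None of the 4 differences was shown to be larger than the spread between livers.

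The genes whose pattern over the 6 livers was most like that of H6pd were Creld1, Cyp2d38-ps and Hsp90b1, which encodes an ER chaperone. Their root mean square differences from H6pd, after each gene's mean log2 CPM was removed, were 0.0589, 0.0666 and 0.0753, among 9116 genes that averaged 5 CPM or more. Creld1 had 73.9 to 77.8 CPM with RD and 36.0 to 51.1 CPM with HCD. Hsp90b1 had 770 to 896 CPM with RD and 350.3 to 464 CPM with HCD. In all 3, as in H6pd, HCD replicate 1 was the lowest liver.

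In the ER, H6pd works with Hsd11b1, which encodes 11β-hydroxysteroid dehydrogenase type 1 and spends the NADPH that H6pd makes, and with the glucose-6-phosphate transporter Slc37a4, which also serves the glucose-6-phosphatase G6pc. Hsd11b1 had 472, 505 and 511 CPM with RD and 975, 710.4 and 985 CPM with HCD. It rose by 0.84 on the log2 scale (standard error 0.17, adjusted p = 0.0423 by edgeR), so that the 2 genes moved in opposite directions with no overlap of the diets in either. The call on Hsd11b1 was kept in 7 of 17 alternatives. It was lost without HCD replicate 1 (0.77, adjusted p = 0.0604) and without each liver other than HCD replicate 2. Slc37a4 was at 0.14 on the log2 scale (adjusted p = 0.803) and G6pc at 0.97 (adjusted p = 0.432), with G6pc between 42.4 and 436 CPM in the RD livers.

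Other enzymes of the pentose phosphate pathway were measured for 14 of 16 genes, and 13 were tested. Of these 1 was called, 11 had a log2 fold change above 0, and their median was 0.13. For this and the lists below, edgeR called 1.95% of all genes tested higher and 1.32% lower. An unadjusted p of 0.05 or less was found by edgeR for 20.9% of all genes tested. The called gene was Pgls, for the lactonase between G6pdx and Pgd, at 46.8, 44.2 and 53.9 CPM with RD and 71.9, 82.7 and 109 CPM with HCD. All HCD livers were above the RD livers, and Pgls rose by 0.86 (standard error 0.17, adjusted p = 0.0387), a call kept in 8 of 17 alternatives. It was lost without any 1 liver except HCD replicate 1. The call was also lost after the length trend was removed, where the log2 fold change was 0.88 (adjusted p = 0.0544 by edgeR). Other losses were with the replicate block (adjusted p = 0.0537 by edgeR) and in both limma-trend fits (adjusted p = 0.0571 and 0.0585). Of its 3770 exon bases, 776 also belong to Fam129c on the same strand. Tktl1, a transketolase relative, had 3 reads in HCD replicate 1 and 0 in the others, and G6pd2 was not analysed here.

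**Figure D4:**
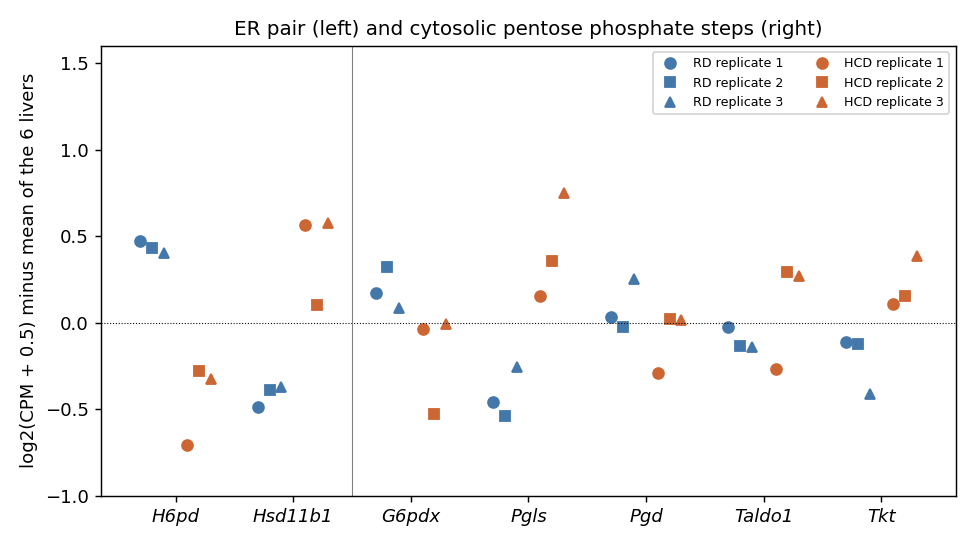
Deviation of log2(CPM + 0.5) from the mean of the 6 livers for the ER pair (left of the line) and for some cytosolic steps of the pathway (right). Marks are single livers, blue for RD and orange for HCD, with the marker shape giving the replicate. H6pd and Hsd11b1 separate the diets in opposite directions, and of the cytosolic steps shown G6pdx, Pgls and Tkt do not overlap while Pgd and Taldo1 do.

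Of 8 tested genes among other sources of NADPH and NADP, none was called in edgeR, and 1 had an unadjusted p of 0.05 or less (Mthfd2l, log2 fold change 1.04, adjusted p = 0.209, named after its value was seen). The median was -0.15. Me1, the cytosolic malic enzyme, had 193, 308 and 177 CPM with RD and 196, 169 and 216 CPM with HCD, with RD replicate 2 above the rest (log2 fold change -0.22, adjusted p = 0.611). Nadk, which makes NADP from NAD, was at -0.08 (adjusted p = 0.776). The mitochondrial isocitrate dehydrogenase that uses NAD, which works beside Idh2, had its subunits at -0.11 for Idh3a (adjusted p = 0.781), 0.12 for Idh3b (adjusted p = 0.658) and 0.39 for Idh3g (adjusted p = 0.134). None of these 4 NAD-linked genes, including Me2, was called, with a median of 0.17 and 1 at an unadjusted p of 0.05 or less. Of 7 partners of the isocitrate route (aconitases, citrate synthase, citrate carrier, malate and oxoglutarate dehydrogenases) none was called or had such a p, and the median was 0.02. DESeq2 called 0 genes in each of these 3 lists.

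Genes that spend NADPH were called in both directions. Of 12 tested in lipid and sterol synthesis 7 fell and none rose in edgeR, beside 1.32% and 1.95% of all genes tested, with a median of -1.42. DESeq2 called 7 lower and 1 higher in this list. The largest falls were those of Sqle (-4.33, standard error 0.26, adjusted p = 0.000736), for squalene epoxidase, Cyp51 (-2.84, standard error 0.18, adjusted p = 0.000736), for lanosterol demethylase, and Dhcr7 (-2.03, standard error 0.28, adjusted p = 0.0130), for the reductase that makes cholesterol from its dehydro precursor. Of 9 tested in peroxide and quinone defence 2 rose in edgeR (3 in DESeq2), Cbr1 (1.40, standard error 0.19, adjusted p = 0.0130), for a carbonyl reductase, and Blvrb (0.99, standard error 0.16, adjusted p = 0.0225), for a biliverdin reductase, and the median was 0.26. Gsr, for glutathione reductase, had 73.2, 73.2 and 82.0 CPM with RD and 67.7, 104 and 102 CPM with HCD, with HCD replicate 1 below the RD livers (log2 fold change 0.26, adjusted p = 0.439). The calls on Cbr1 and Blvrb were lost without RD replicate 1 (adjusted p = 0.0649 and 0.0950) or RD replicate 2 (0.0745 and 0.122), and that on Blvrb also without RD replicate 3 (0.0770) or HCD replicate 3 (0.0752). Dhcr7 was not called without RD replicate 1 (adjusted p = 0.0649), while Sqle and Cyp51 were called in all 17 alternatives.

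Among 11 lipogenic genes, a list that shares control by diet with G6pdx and Me1, Srebf1 rose (2.14, standard error 0.21, adjusted p = 0.00407) and Acacb fell (-1.81, standard error 0.19, adjusted p = 0.00523) in edgeR, and the median was -0.33. DESeq2 called 2 higher and 2 lower in this list. Srebf1 encodes a transcription factor of lipid synthesis and Acacb the acetyl-CoA carboxylase at mitochondria. Of 9 tested targets of NRF2, the oxidant-response factor for which G6pdx, Pgd, Taldo1 and Tkt are also known targets, 8 had log2 fold changes above 0 with a median of 0.47. At an unadjusted p of 0.05 or less in edgeR there were 4, beside 20.9% of all genes tested. Gsta4, for a glutathione transferase, was the one called in edgeR (1.33, standard error 0.18, adjusted p = 0.0130). Its call was lost without RD replicate 1 (0.0649), RD replicate 2 (0.0745) or HCD replicate 3 (0.0542), given as adjusted p from edgeR. The list had 3 genes called higher in DESeq2, and 2 in edgeR with no low-count filter or without HCD replicate 2. In all, edgeR called 6 genes higher and 8 lower among the 73 tested in these 9 lists, each gene counted once. Over all genes tested the shares were 1.95% higher and 1.32% lower.

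**Figure D5:**
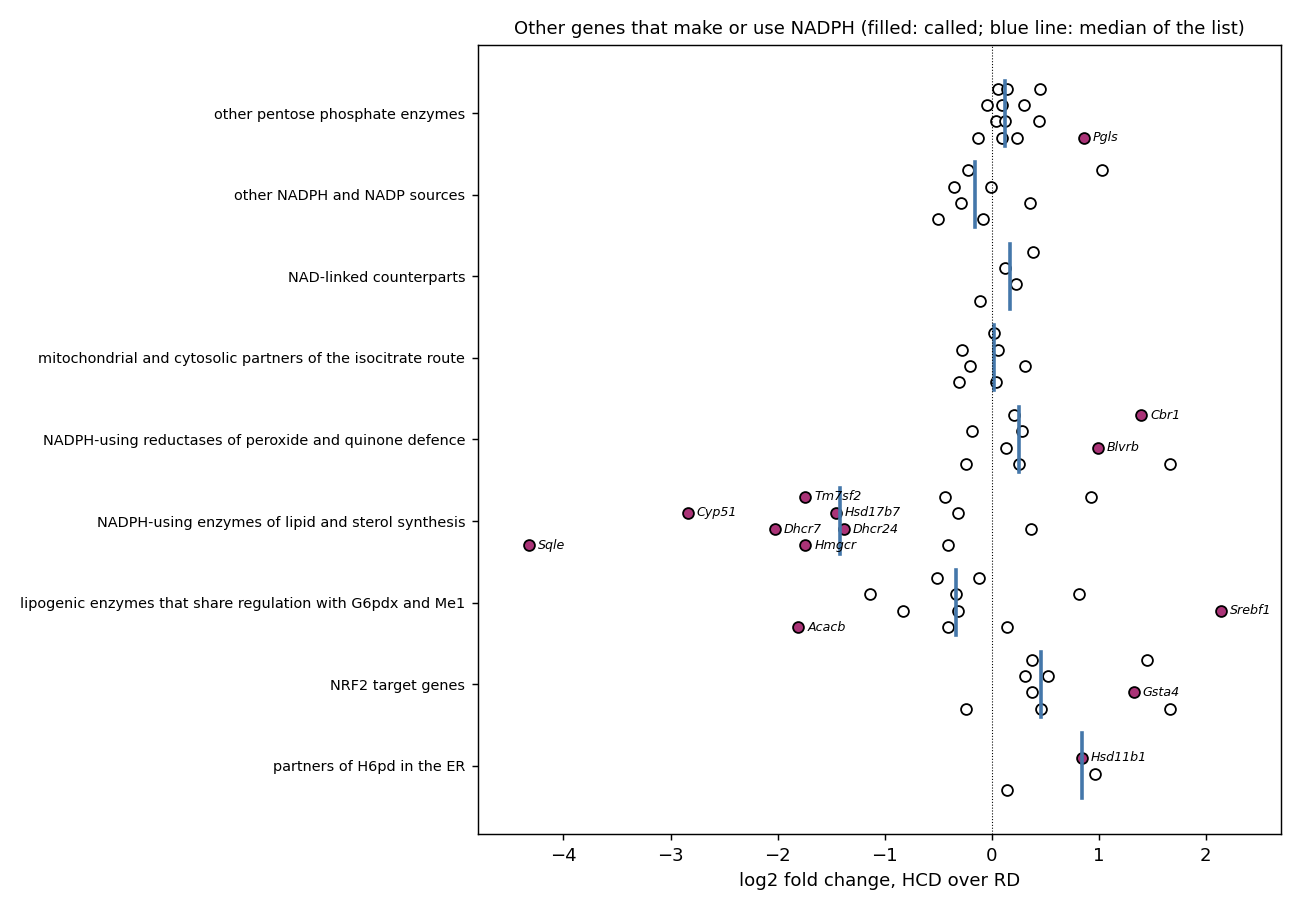
Log2 fold change (HCD over RD) of the genes tested in each list on the x axis, with 1 point per gene, filled where called, and a blue line at the median of the list. Called genes are named. Falls cluster in the list of lipid and sterol synthesis, down to -4.33 for Sqle, and the list of other NADPH and NADP sources holds no called gene.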

How the data were processed

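Libraries made at Novogene from RNeasy-purified total RNA covered 6 livers (3 RD, 3 HCD for 3 days). Diet and replicate were taken from the sample labels. The submitters' processing notes list STAR, HTSeq, DESeq2, edgeR and GRCm39, with no versions, and the sources used here do not give the strand setting. The authors deposited whole-number read counts per gene, without normalization, and FPKM, which divide counts by gene length and by a library total. For 94.98% to 95.06% of genes with at least 20 counts in a library, and for all 8 members, the length implied by FPKM and counts equals the GENCODE M21 exon length within 0.1%, so positions are those of M21 on GRCm38. The log2 fold changes and p-values that the authors deposited are their own comparison of the diets and were not used.

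Counts were fitted with edgeR 4.0.16 in R 4.3.3. The filter filterByExpr kept 13105 of 20673 genes, TMM factors were 0.886 to 1.07, and glmQLFit and glmQLFTest compared the diets without covariates. P-values were adjusted by Benjamini-Hochberg over all genes tested, with calls at an adjusted p under 0.05. CPM are TMM-scaled. Ratios of 2 members used a prior of 0.5 CPM and exact permutation tests (scipy 1.17.1). How the mice were assigned to cages is not given in these sources, and p-values measure the spread between these livers. A count of 0 allows up to 3 reads (0.130 to 0.218 CPM), which covers counting error only. Shared transcripts were found with minimap2 2.31, at 90% identity over 200 bases. Figures were drawn with matplotlib 3.10.9.

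The members and lists were chosen with earlier results of these data known. All 8 members are named, with each called gene of a list up to 5 and otherwise the 3 largest changes in each direction, a few fixed enzymes (Me1, G6pd2, Tktl1, Idh3a, Idh3b, Idh3g, Gsr, Nadk), the most abundant gene of each marker list and the 3 genes most like the called member. Marker genes named for being called or near 0 were chosen after their values were seen. Alternatives were DESeq2 1.42.0, upper-quartile or RLE factors, unscaled library sizes, no low-count filter, genes averaging 50 counts or more, limma-trend (limma 3.58.1) on log2 of FPKM plus 1 or 0.1, removal of the trend with gene length (loess, span 0.5), protein-coding genes only, the replicate block, each liver left out, and other thresholds.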

Additional observations from a re-analysis of the deposited data

How the results depend on the processing

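The number of members called was 1 and stayed 1 under the other normalizations, DESeq2, limma-trend on FPKM, both low-count settings, protein-coding genes only and a fold change of at least 1.5. It was 0 after removal of the length trend, with the replicate block and at an adjusted p under 0.01, 3 when p was not adjusted (0.05 or less), and 0 to 1 with a liver left out. For H6pd the log2 fold change was -0.79 after removal of the length trend (adjusted p = 0.0659 in edgeR), -0.87 with the replicate block (adjusted p = 0.0694), and -0.95 to -0.74 with a liver left out (adjusted p = 0.0406 to 0.145). The cause was not tested, except that a left-out liver leaves fewer samples. Called genes of the other pathway lists numbered 14, 7 to 14 with a liver left out (7 without RD replicate 1, 8 without RD replicate 2), and 11 to 19 under the settings with all 6 livers.

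The log2 fold change of Idh1 lay between -0.078 and 0.034 with a liver left out and turned positive without RD replicate 3 (0.018) and without HCD replicate 1 (0.034). The log2 ratio of Pgd to G6pdx lay between -0.012 and 0.39, and was negative without HCD replicate 2. The other 6 members kept their direction and their side of the threshold where they had a value, and Nnt had none at a mean of at least 50 counts. Livers with the same replicate number did not deviate together (r = -0.0761, 0.0879 and -0.0413 across genes). With 3 livers per diet this cannot show whether livers were handled in pairs. The labels give no pairing, and the replicate block is given only as an alternative. The shallowest members were Nnt, with 6 to 38 reads per library, and G6pdx, with 57 to 144. With 3 livers per diet and a biological coefficient of variation of 27.8% over genes, the intervals of 5 members include no change.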
